A study of Mus musculus with 3 samples.

Results

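The genes of the mitochondrial ribosomal proteins were examined in 3 murine colon adenocarcinoma cell lines. Members were all probes of the array whose transcript accession belonged to a mouse gene symbol beginning with Mrpl or Mrps and followed by a number, which gave 78 genes out of 22911 genes that could be named. They comprised 49 Mrpl genes and 29 Mrps genes and were read by 101 probes, against 32994 named probes in all. All 78 symbols of this form in the gene table were found on the array. Colon26 is the parental line, LuM1 is its highly metastatic subline and NM11 is its low-metastatic subline. All 3 lines came from female BALB/c mice, received no further treatment, and were grown for 3 days in RPMI1640 with 10% FBS. RNA from each line (0.1 µg) was hybridised to 1 single-colour array, so no line had a replicate and no difference between lines could be tested. Each subline is a single selected population, and a difference from Colon26 cannot be told apart from the history of that population or from the culture that was harvested.

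Mitochondria keep their own ribosome, which translates only the few proteins encoded by mitochondrial DNA, all of them subunits of the respiratory chain and of ATP synthase. Its ribosomal RNAs come from mitochondrial DNA, whereas all of its proteins are encoded in the nucleus, made in the cytosol and imported. The small subunit (Mrps genes) reads the messenger RNA, and the large subunit (Mrpl genes) joins the amino acids. Part of the proteins descend from those of bacterial ribosomes and part were added in mitochondria.

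Signals are given in array units after division by the 75th percentile of the array (75th percentile scaling), and differences between lines as log2 ratios, on which 1 stands for 2-fold. The scanner software gave each signal an error of about 10%, so that the ratio of the median member carried a scanner error of 0.20 on the log2 scale. This error covers the reading of the spots and not the spread between cultures, which was not measured. A gene was read by its brightest named probe, and a gene counted as measured in a comparison if the scanner software marked that probe as well above background on both arrays. Of all named genes, 12394 were measured for LuM1 and Colon26, 12469 for NM11 and Colon26, and 12848 for LuM1 and NM11. The 3 comparisons share arrays and are not independent of each other. Because a single factor per array shifts every ratio alike, levels of the family are also given relative to the median of all measured genes, which such a factor leaves as it is.

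The cells were checked against markers of cell type. Of 5 colon epithelial markers, 3 were well above background in every line (Cdx2, Krt20 and Lgals4), while Vil1 and Cdx1 were not above background in any line. These 3 were lower in both sublines than in Colon26. Krt20 was at 651 in Colon26, 53.9 in LuM1 and 160 in NM11, Lgals4 at 198, 70.8 and 69.5, and Cdx2 at 443, 229 and 170. Of 7 general epithelial markers, Krt8 (28.9 in Colon26, 106 in LuM1 and 37.8 in NM11) and Cldn7 (91.4, 57.4 and 95.3) were above background in every line and Epcam in LuM1 alone (27.7), while Cdh1, Krt18, Krt19 and Cldn4 were not above it in any. All 5 mesenchymal markers were well above background in all 3 lines, but not at like levels. Vim was at 102157 in Colon26, 79106 in LuM1 and 100149 in NM11, whereas Col1a2 was at 59908, 49.0 and 86816, Col1a1 at 4919, 2220 and 6154, and Col3a1 at 294, 1156 and 2702. The leukocyte marker Ptprc was not above background in any line, although Cd68 was at 172 in Colon26, 5188 in LuM1 and 305 in NM11, Cd3e at 628, 503 and 563, and Cd79a was above background in Colon26 alone (39.6). Of 3 endothelial markers, Cdh5 and Kdr were not above background in any line and Pecam1 was at 51.3, 52.3 and 79.7. The part of these differences in the results below was not tested.

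Every line gave a signal well above background at all 101 member probes, and none was saturated. The signals of the 78 members ran from 40.6 to 52455 in Colon26, with a median of 6940. In LuM1 they ran from 46.2 to 46871 with a median of 4866, and in NM11 from 35.1 to 44037 with a median of 6615. Signals of different probes depend on the probe as well as on the transcript, so levels are not compared between members. The lowest signal was that of Mrpl35, whose ratios carried the largest scanner error.

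Promoters are shown for the members at the extremes of the comparisons and for a set of paralogues that differed among themselves. Mrpl12 was the member farthest below Colon26 in LuM1. Mrps14 and Mrpl47 were those farthest above Colon26 in NM11. Mrps18a, Mrps18b and Mrps18c are 3 related proteins of which the mitochondrial ribosome carries several in different places, and the first and second of them were lower in LuM1 while the third was not. Sequences are from RefSeq on GRCm38.p6, 5′ to 3′ on the strand of the gene, from 250 bases before to 30 bases after the annotated start. Capitals mark exact matches, on either strand, to 1 of 4 motifs: the ETS core CCGGAAG, the palindromic site of NRF1, the site of YY1 and the E-box CACGTG.
Mrpl12, chr11:120484387-120484666, plus strand: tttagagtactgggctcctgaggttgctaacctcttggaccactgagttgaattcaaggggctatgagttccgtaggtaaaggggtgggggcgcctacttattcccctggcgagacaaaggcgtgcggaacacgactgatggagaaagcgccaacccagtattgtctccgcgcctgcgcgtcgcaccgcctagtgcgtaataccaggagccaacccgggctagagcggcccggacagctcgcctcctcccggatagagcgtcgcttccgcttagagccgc
Mrps14, chr1:160194965-160195244, plus strand: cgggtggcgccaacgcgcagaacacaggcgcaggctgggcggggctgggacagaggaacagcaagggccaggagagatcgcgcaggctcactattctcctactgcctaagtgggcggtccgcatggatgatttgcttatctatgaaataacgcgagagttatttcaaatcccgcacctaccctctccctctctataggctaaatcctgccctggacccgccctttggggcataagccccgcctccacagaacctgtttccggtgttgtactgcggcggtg
Mrpl47, chr3:32736726-32737005, minus strand: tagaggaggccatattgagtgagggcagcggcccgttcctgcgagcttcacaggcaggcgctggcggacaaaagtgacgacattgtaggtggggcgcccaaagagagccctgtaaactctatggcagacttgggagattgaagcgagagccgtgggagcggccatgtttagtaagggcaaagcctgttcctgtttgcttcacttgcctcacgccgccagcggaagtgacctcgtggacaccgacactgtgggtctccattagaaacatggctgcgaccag
Mrps18a, chr17:46110754-46111033, plus strand: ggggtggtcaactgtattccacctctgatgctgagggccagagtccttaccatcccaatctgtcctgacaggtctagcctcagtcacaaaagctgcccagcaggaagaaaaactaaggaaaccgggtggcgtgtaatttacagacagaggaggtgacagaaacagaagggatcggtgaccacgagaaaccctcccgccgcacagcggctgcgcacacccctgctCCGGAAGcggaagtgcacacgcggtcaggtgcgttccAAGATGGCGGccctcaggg
Mrps18b, chr17:35916411-35916690, minus strand: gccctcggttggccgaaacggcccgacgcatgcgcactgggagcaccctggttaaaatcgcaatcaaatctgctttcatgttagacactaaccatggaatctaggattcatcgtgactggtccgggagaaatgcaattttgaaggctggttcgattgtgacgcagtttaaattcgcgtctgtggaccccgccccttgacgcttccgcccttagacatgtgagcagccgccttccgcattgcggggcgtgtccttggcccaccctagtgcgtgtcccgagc
Mrps18c, chr5:100798509-100798788, plus strand: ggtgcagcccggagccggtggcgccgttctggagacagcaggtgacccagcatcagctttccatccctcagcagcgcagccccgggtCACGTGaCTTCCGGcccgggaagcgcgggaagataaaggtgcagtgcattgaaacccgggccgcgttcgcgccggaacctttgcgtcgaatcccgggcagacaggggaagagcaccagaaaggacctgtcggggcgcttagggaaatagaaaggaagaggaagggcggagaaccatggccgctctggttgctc
In the stretches shown, the promoters of Mrpl12, Mrps14, Mrpl47 and Mrps18b held no match. That of Mrps18a held an ETS core starting 26 bases before the start and a YY1 site beginning at base 12 of the transcript. That of Mrps18c held an E-box and an ETS core side by side, starting 163 and 156 bases before the start. Mrps18b has an ETS core beginning at base 44 of the transcript, beyond the stretch shown.

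With 75th percentile scaling, the family was lower in LuM1 than in either of the other lines. The median log2 ratio of the 78 members was −0.37 for LuM1 over Colon26, with quartiles of −0.62 and −0.09, and −0.41 for LuM1 over NM11, with quartiles of −0.67 and −0.05. It was 0.00 for NM11 over Colon26, with quartiles of −0.24 and 0.25. The median of all measured genes was −0.15, −0.15 and 0.00 in the same comparisons. Relative to it, the members stood at −0.22 in LuM1 over Colon26, at −0.26 in LuM1 over NM11 and at 0.00 in NM11 over Colon26. The direction of the family's own median depended on the scaling. With the values processed by the authors it was 0.09 for LuM1 over Colon26 and 0.05 for LuM1 over NM11. With scaling to Hprt it was 0.22 for LuM1 over NM11. The position of the members relative to all measured genes cannot change under either, since both use a single factor per array. Quantile normalization could change that position, and gave −0.10 in LuM1 over Colon26. Without the filter on dim probes that position shrank to −0.02 in LuM1 over Colon26.

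**Figure D1:**
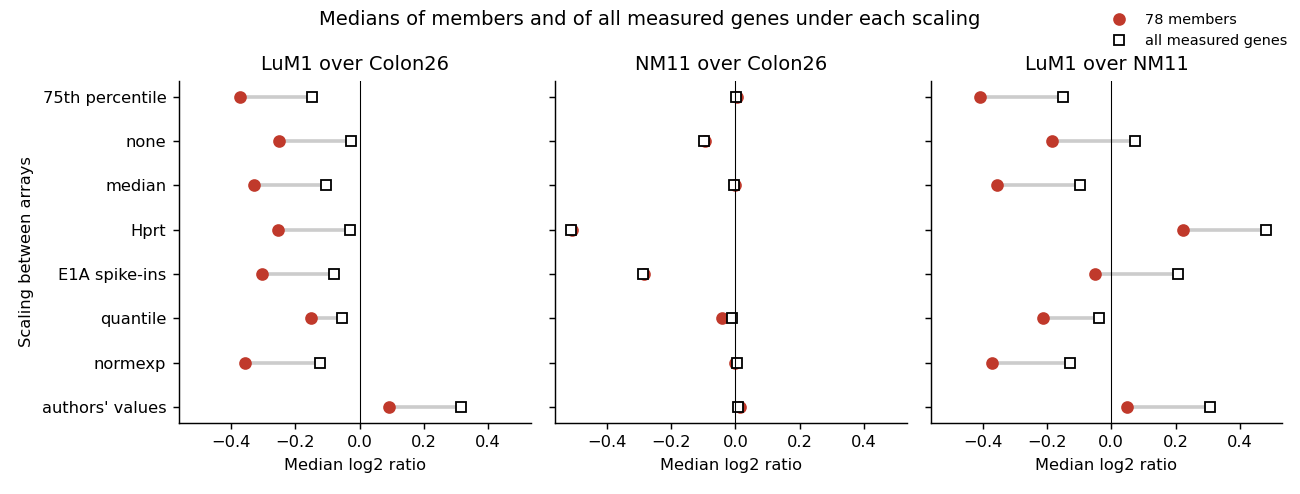
Median log2 ratio of the 78 members (filled circles) and of all measured genes (open squares) in each comparison, under 8 ways of bringing the 3 arrays to 1 scale (1 array per line). The circle lies to the left of the square in both comparisons of LuM1. The distance between them could change only with quantile normalization and normexp, since the other scalings use a single factor per array. In the comparisons of LuM1, the circle crosses zero with the values processed by the authors and, for LuM1 over NM11, with scaling to Hprt. In NM11 over Colon26 it lies near zero with 75th percentile scaling. There it is farthest below zero with scaling to Hprt and then to the E1A spike-in controls.

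Of the 78 members, 57 (73.1%) lay below the median of all measured genes in LuM1 over Colon26, where the background is 50% by construction. In LuM1 over NM11 the number was 54 (69.2%), and in NM11 over Colon26 it was 38 (48.7%). With 75th percentile scaling, LuM1 had the lowest signal of the 3 lines in 57 members (73.1%), against 47.9% of all 12245 genes measured on all arrays. Both shares moved with the scaling, and with the values processed by the authors LuM1 was lowest in 22 members (28.2%) and in 18.7% of all genes. Brightness moved with the result as well. The 2316 genes whose mean signal lay between the quartiles of the members' signals, and which were measured for LuM1 and Colon26, had a median relative to all measured genes of −0.15 in LuM1 over Colon26, against −0.22 for the members, and LuM1 was lowest in 58.8% of those measured on all arrays. The part of brightness in the members' position was not tested.

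**Figure D2:**
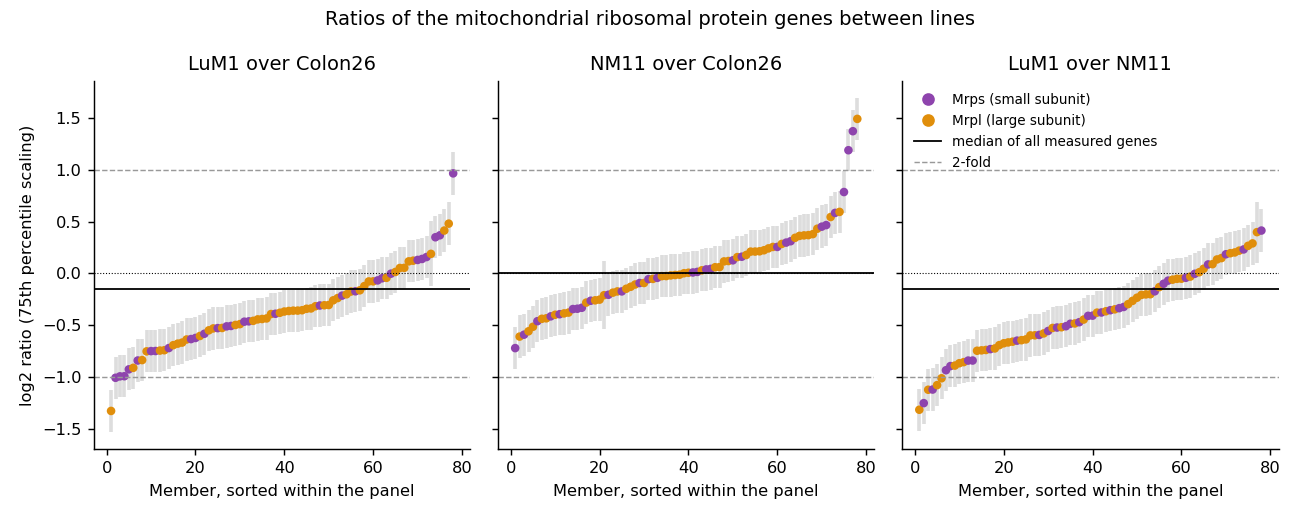
Log2 ratio of each of the 78 members (circles, violet for small and orange for large subunit symbols), sorted within each panel, with the scanner error of the ratio as grey bars, 1 array per line, after 75th percentile scaling. In both comparisons of LuM1 most members lie below the solid line, which is the median of all measured genes, and few pass the dashed lines at 2-fold (the dotted line marks zero).

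Differences of 2-fold or more were counted beside those of all measured genes. In LuM1 over Colon26, no member was at least 2-fold higher, against 9.51% of all measured genes, and 2 were at least 2-fold lower (Mrpl12 and Mrps18b), against 10.1%. In NM11 over Colon26, 3 were at least 2-fold higher (Mrpl47, Mrps14 and Mrps28), against 6.58%, and none was at least 2-fold lower, against 5.16%. In LuM1 over NM11, none was at least 2-fold higher, against 7.98%, and 6 were at least 2-fold lower (Mrpl12, Mrps6, Mrpl54, Mrps7, Mrpl47 and Mrpl22), against 8.16%. These calls depended on the scaling. The 6 lower calls of LuM1 over NM11 became 2 without scaling and 0 with scaling to Hprt or E1A, with quantile normalization and with the processed values, and the 3 higher calls of NM11 over Colon26 became 0 with scaling to Hprt, where 5 members were lower. The share of 7.69% (6 members) in LuM1 over NM11 was near the background. Members varied less among themselves than genes in general. The distance between their quartiles was 0.53 in LuM1 over Colon26 and that of all genes 0.89, and 97.4% of members and 80.4% of all genes stayed within 2-fold. With a threshold of 1.5-fold, 21 members were lower in LuM1 over Colon26 (26.9%, against 24.4% of all genes) and 28 in LuM1 over NM11 (35.9%, against 21.7%), while 1 and none were higher (against 16.7% and 15.0%). In NM11 over Colon26, 6 were higher by this threshold (against 14.3%) and 3 lower (against 13.6%).

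Several members lay close to the threshold of 2-fold. In LuM1 over Colon26, Mrps18b was just inside at −1.01, and Mrps7 and Mrps26 were just outside, both at −0.99. In LuM1 over NM11, Mrpl22 was just inside at −1.01, and Mrps24 was the nearest outside at −0.93. In NM11 over Colon26 there was a gap, with Mrps28 inside at 1.19 and Mrps6 outside at 0.79.

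Among the proteins of the large subunit, Mrpl12 showed the lowest ratio of the family in both comparisons of LuM1. Mrpl12 belongs to the stalk of the large subunit, where translation factors dock, and is also known to bind the mitochondrial RNA polymerase. Its signal was 17368 in Colon26, 6921 in LuM1 and 17229 in NM11. With 75th percentile scaling Colon26 and NM11 were within the scanner error of each other and LuM1 was apart, 2.51-fold below Colon26 (log2 ratio −1.33) and 2.49-fold below NM11 (−1.32). The ratio to Colon26 stayed between −1.34 and −0.86 under every alternative tried, the latter with the values processed by the authors. The ratio to NM11 was −0.68 with scaling to Hprt, where NM11 was below Colon26 (−0.53). Mrpl10, which anchors Mrpl12 in the stalk, was at 1926, 1560 and 2009 in Colon26, LuM1 and NM11 (log2 ratio of LuM1 over Colon26 −0.30), and Mrpl11, at the base of the stalk, at 10773, 8424 and 12743 (−0.35). With 75th percentile scaling both were lowest in LuM1, by less than Mrpl12, but the processed values shift all ratios of LuM1 over Colon26 by 0.46, which is more than either ratio.

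Mrpl47, a large subunit protein next to the exit of the peptide tunnel, was the member with the highest ratio in NM11 over Colon26. Its signal was 2403 in Colon26, 3203 in LuM1 and 6763 in NM11. NM11 was 2.81-fold above Colon26 (1.49), and LuM1 lay between them, above Colon26 (0.41) and below NM11 (−1.08). Mrpl54 was at 7834, 4652 and 10128 in Colon26, LuM1 and NM11, and Mrpl22, a protein that lines the peptide tunnel, at 12436, 7831 and 15790. In both of these, Colon26 lay between a lower LuM1 and a higher NM11, with a log2 ratio of LuM1 over NM11 of −1.12 for Mrpl54 and −1.01 for Mrpl22, but with scaling to Hprt NM11 came to lie below Colon26 (−0.14 and −0.17).

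Mrpl44 was the only member that LuM1 exceeded both other lines in by more than the scanner error with 75th percentile scaling, a pattern that 17.9% of all genes showed. It is a protein of the large subunit related to ribonuclease III. Its signal was 1181 in Colon26, 1648 in LuM1 and 1370 in NM11, which gave 0.48 for LuM1 over Colon26 and 0.27 for LuM1 over NM11, and its other probe gave 0.36 and 0.24. NM11 was above Colon26 (0.21), except with scaling to Hprt (−0.30) and to the E1A spike-in controls (−0.07). Mrpl57 was at 28109, 16819 and 18426, below Colon26 in both sublines (−0.74 in LuM1 and −0.61 in NM11). Mrpl18 was at 4036, 3194 and 2741, with NM11 lowest (−0.56). Mrpl36, the homologue of the smallest protein of the bacterial large subunit, was at 5595, 6068 and 4962, and the dim Mrpl35 at 40.6, 46.2 and 35.1. In these last 2 genes LuM1 was highest and NM11 lowest, with log2 ratios of LuM1 over NM11 of 0.29 and 0.40, and for each the difference of either subline from Colon26 was within the scanner error.

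Among the proteins of the small subunit, the farthest apart was Mrps14, whose bacterial homologue lies in the head of the subunit. Its signal was 2269 in Colon26, 4434 in LuM1 and 5880 in NM11. Both sublines lay above Colon26, NM11 2.59-fold (1.37) and LuM1 by a log2 ratio of 0.97, the highest of any member in LuM1 over Colon26. The order of the sublines turned with scaling to Hprt and with the processed values, where LuM1 was above NM11 (0.23 and 0.05). In Mrps28 NM11 was also the highest line, with 5072 in Colon26, 6463 in LuM1 and 11573 in NM11 (0.35 and 1.19 over Colon26). Mrps9, another protein with a bacterial homologue, was at 1718, 2217 and 2375 (0.37 and 0.47), and its second probe gave 0.39 and 0.48. In each of these 3 genes Colon26 was the lowest line with 75th percentile scaling, but with scaling to Hprt Mrps9 was slightly lower in NM11 than in Colon26 (−0.05).

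In Mrps6 and Mrps7, LuM1 was the lowest line. Mrps6, a protein at the platform of the small subunit, was at 11313 in Colon26, 8194 in LuM1 and 19514 in NM11. NM11 was above Colon26 (0.79) and LuM1 below (−0.47), so that LuM1 was 2.38-fold below NM11 (−1.25). With the values processed by the authors, LuM1 and Colon26 were level (−0.0010). Mrps7, which binds the ribosomal RNA of the head, was at 13768, 6916 and 15038. Here Colon26 and NM11 were within the scanner error of each other (0.13, but −0.39 with scaling to Hprt), and LuM1 was below both (−0.99 and −1.12), which its other probe gave as −1.003 and −1.09.

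Of other small subunit proteins, Mrps26 and Mrps34 were lower in both sublines than in Colon26. Mrps26 was at 35801 in Colon26, 18000 in LuM1 and 28217 in NM11, and Mrps34 at 8662, 5584 and 5257. Mrps34 had the lowest ratio of the family in NM11 over Colon26 (−0.72), and its difference between LuM1 and NM11 was within the scanner error (0.09). Mrps33 was at 11853, 11479 and 8613, so that Colon26 and LuM1 were alike and NM11 was below them (−0.46 against Colon26).

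The 3 paralogues of bacterial S18 did not move together. Mrps18a was at 7204 in Colon26, 3793 in LuM1 and 4783 in NM11, and Mrps18b at 22423, 11156 and 16830, both highest in Colon26 and lowest in LuM1, although LuM1 came to lie above NM11 with scaling to Hprt (0.30 and 0.04). Mrps18c, in contrast, was at 6717, 7354 and 6466, with no pair of lines apart by more than the scanner error. The log2 ratios of LuM1 over Colon26 were −0.93 for Mrps18a, −1.01 for Mrps18b and 0.13 for Mrps18c. Mrps18b and Mrps18c each had another probe, which gave −1.14 and 0.03.

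**Figure D3:**
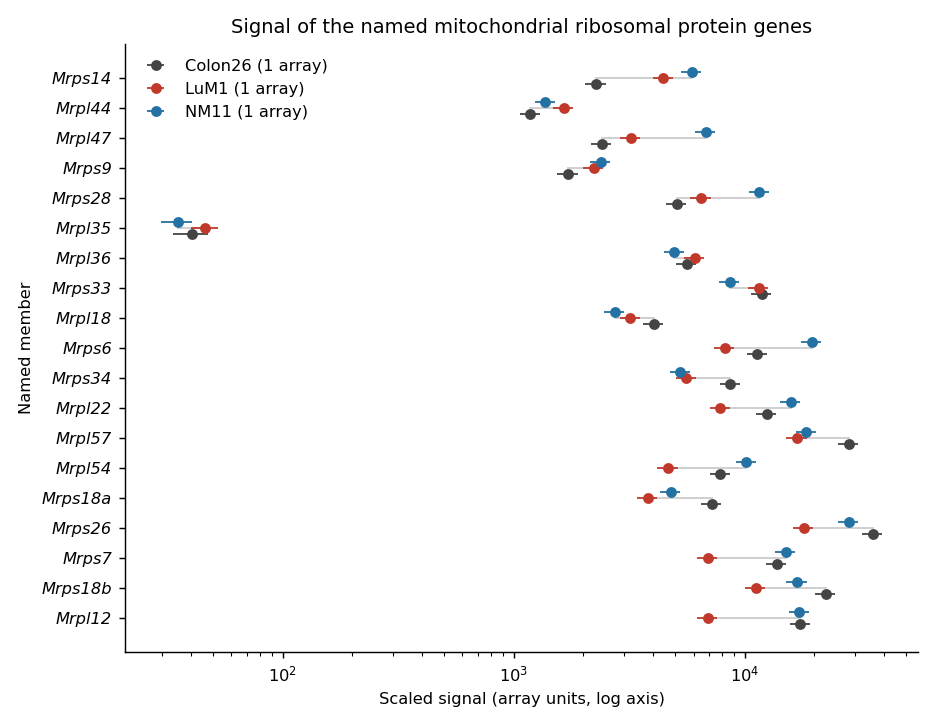
Scaled signal of the 19 members named for the size of their differences in Colon26, LuM1 and NM11 (1 array each, log axis), with the scanner error of each signal as bars, ordered by the ratio of LuM1 over Colon26. LuM1 lies below both other lines at Mrpl12, Mrps18b, Mrps7, Mrps26, Mrps18a, Mrpl54, Mrpl57, Mrpl22 and Mrps6. Colon26 is lowest at Mrps14, Mrpl44, Mrpl47, Mrps9 and Mrps28, and NM11 at the rest.

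By symbol, the 29 Mrps genes had a median log2 ratio of −0.47 in LuM1 over Colon26 and the 49 Mrpl genes of −0.36. In LuM1 over NM11 the medians were −0.41 and −0.38, and in NM11 over Colon26 0.01 and 0.00. Of the 29 Mrps genes, 20 lay below the median of all measured genes in LuM1 over Colon26, as did 37 of the 49 Mrpl genes. When the members were split by place and origin (with Mrps18a and Mrps30 in the large subunit, where their proteins lie, and without Mrps36, which is known as part of a dehydrogenase complex of the citric acid cycle), the 10 small subunit proteins listed as specific to mitochondria (among them Mrps26, Mrps34 and Mrps22) stood at −0.57 in LuM1 and −0.34 in NM11 over Colon26. This list holds Mrps18b, a paralogue of bacterial S18 added in mitochondria, and the other 9 genes stood at −0.51 and −0.34. The 16 small subunit proteins with a bacterial homologue stood at −0.34 and 0.09. The 30 large subunit proteins with a bacterial homologue stood at −0.36 and −0.01, and the 21 listed as specific to mitochondria at −0.37 and 0.16. The groups overlapped, and the ratios of the 10 small subunit proteins ran from −0.72 to 0.45 in NM11 over Colon26.

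The order of the 3 lines was not the same through the family. With 75th percentile scaling, the commonest order was NM11 highest, Colon26 next and LuM1 lowest, in 31 members, followed by Colon26 highest, NM11 next and LuM1 lowest, in 26. LuM1 was below both other lines by more than the scanner error in 43 members (55.1%, against 33.0% of all genes). NM11 was above both others in 22 members (28.2%, against 18.8%) and below both in 2, Mrpl18 and Mrps33 (2.56%, against 13.0%). In 14 members LuM1 was below and NM11 above Colon26, each by more than the scanner error (17.9%, against 7.51% of all genes), and no member showed the reverse (against 4.40%). The 14 were Mrpl4, Mrpl11, Mrpl22, Mrpl23, Mrpl32, Mrpl37, Mrpl42, Mrpl45, Mrpl49, Mrpl54, Mrps6, Mrps24, Mrps27 and Mrps30. These patterns were counted with 75th percentile scaling, and that of the 14 depended on it. Scaling to Hprt shifts all ratios of NM11 over Colon26 by −0.51. Of the 14, only Mrps6 (0.79) and Mrps30 (0.585) lay above Colon26 in NM11 by more than that shift. For Mrps30 the excess over the shift was less than the scanner error. The processed values shift all ratios of LuM1 over Colon26 by 0.46. This is more than the fall in LuM1 of Mrpl4, Mrpl11, Mrpl23, Mrpl32, Mrpl37, Mrpl42, Mrps27 and Mrps30. The falls of Mrpl22, Mrpl45, Mrpl49, Mrps6 and Mrps24 exceeded that shift by less than the scanner error. Of the 14, only Mrpl54 (−0.75) exceeded it by more than that error. In 5 members both sublines were above Colon26 by more than the scanner error (6.41%, against 17.3% of all genes), and in 18 both were below (23.1%, against 22.3%). In 8 members (10.3%, against 8.40%) no pair of lines was apart by more than the scanner error, namely Mrpl13, Mrpl19, Mrpl34, Mrpl39, Mrpl43, Mrps18c, Mrps25 and Mrps36.

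Probes of the same gene are not replicates but show how far a ratio depends on the probe. Of the members, 21 had more than 1 probe. The ratios of their probes differed by a median of 0.06 in LuM1 over Colon26, 0.10 in NM11 over Colon26 and 0.08 in LuM1 over NM11. The widest spread was at Mrps23 in LuM1 over Colon26, where its probes gave −1.15 and −0.72. Mrpl12, Mrps14, Mrpl47, Mrps28, Mrps6 and Mrpl54 were each read by a single named probe.

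Genes that lie near each other on a chromosome were compared next, a step chosen after the values of the members had been seen. For each member the median ratio of the nearest 5 measured genes on each side was taken, with gene order from GRCm38.p6. Across the 78 members, the own ratio and that of the neighbours correlated with Pearson's r = 0.62 and Spearman's rho = 0.64 in NM11 over Colon26. The values were 0.57 and 0.54 in LuM1 over NM11, and 0.41 and 0.40 in LuM1 over Colon26. Across all 12241 genes with such neighbours, r was 0.26, 0.20 and 0.19 in the same order, and rho was 0.36, 0.23 and 0.23. These are correlations across genes of the same arrays, which are not independent replicates, and members on a chromosome may share neighbours.

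The 3 members highest in NM11 over Colon26 lay beside genes that were higher as well. Mrps14 on chromosome 1 lies between Cop1 at 0.38 and Cacybp, a binding protein of calcyclin, at 1.65 in NM11 over Colon26. The median of its 10 neighbours was 0.25, near that of all measured genes of the chromosome (0.21). Mrpl47 on chromosome 3 lies between Actl6a, a subunit of chromatin remodelling complexes, at 1.05 and Ndufb5, a subunit of respiratory complex I, at 0.56, and the median of its 10 neighbours was 0.54. Mrps28, also on chromosome 3, had 7 neighbours measured, all above 0, with a median of 0.85. At the other end, the 10 neighbours of Mrps34 on chromosome 17 were all below 0, with a median of −0.63. The neighbours of Mrps18a on the same chromosome had a median of −0.51 in NM11 and −0.77 in LuM1 over Colon26. Mrpl57 and Mrpl18, also among the 4 lowest in NM11 over Colon26, were not matched in this way. Their neighbours had medians of −0.07 and −0.08 in that comparison, with 4 of 10 above 0 for each. Mrps6 on chromosome 16 was not matched by its neighbours as a whole (−0.03), although Slc5a3, the inositol transporter gene next to it, was at 1.14.

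By chromosome, all 8 members on chromosome 17 (Mrpl2, Mrpl14, Mrpl18, Mrpl28, Mrps10, Mrps18a, Mrps18b and Mrps34) lay below the median of all measured genes in NM11 over Colon26. Their median log2 ratio was −0.41, and that of all 638 measured genes of the chromosome was −0.36. All 6 members on chromosome 7 and all 5 on chromosome 1 lay above it, with medians of 0.24 and 0.26, and all measured genes of these chromosomes had medians of 0.13 and 0.21. On chromosome 13, with a median of all genes of 0.36, 4 of 5 members lay above the median of all measured genes over all chromosomes, the exception being Mrpl36. Not every chromosome went with its members in NM11 over Colon26. On chromosome 3, which holds Mrpl47 and Mrps28, 3 of 5 members lay below the median of all measured genes. Their median was −0.01, and that of the chromosome 0.14. On chromosome 19 the members' median was 0.12 and that of all genes −0.03. The 11 members on chromosome 11, which include Mrpl12, Mrps7 and Mrpl22, all lay below the median of all measured genes in LuM1 over NM11, with a median of −0.75, and the 1037 measured genes of the chromosome had a median of −0.43. On chromosome 13 the members and the chromosome parted in LuM1 over Colon26, with medians of −0.31 and 0.20. DNA copy number was not measured on these arrays.

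**Figure D4:**
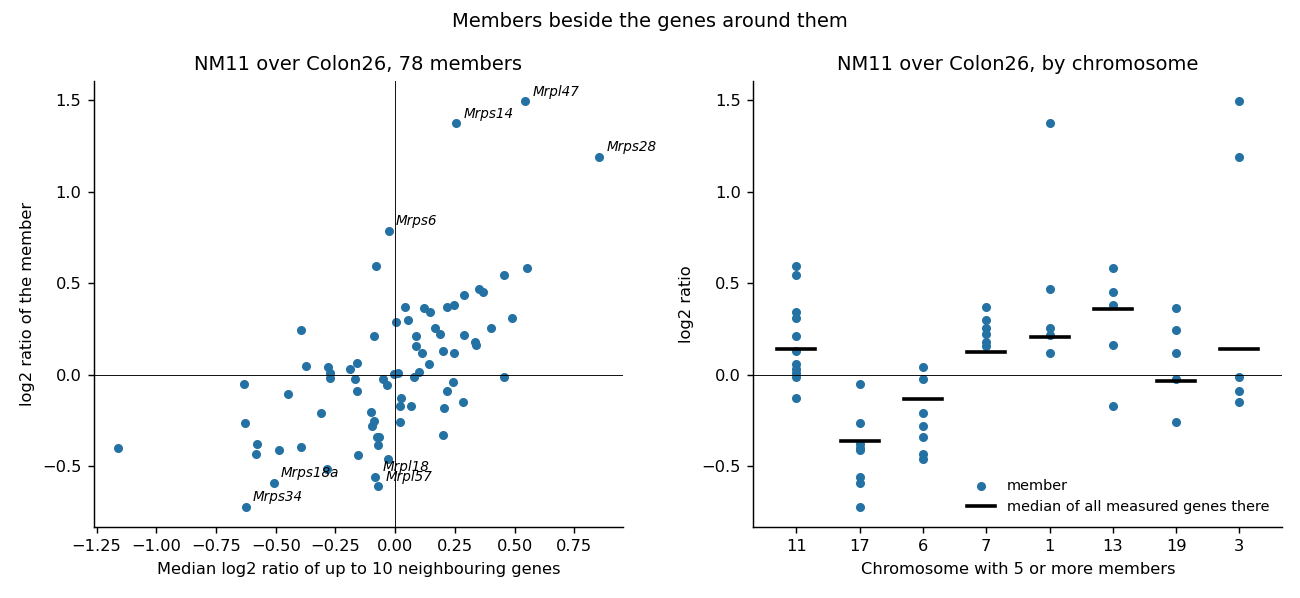
Left, log2 ratio of NM11 over Colon26 of each of the 78 members against the median of up to 10 neighbouring genes. Right, the ratios of members (circles) on the 8 chromosomes that hold 5 or more, with the median of all measured genes of the chromosome as a bar (1 array per line, 75th percentile scaling). Mrpl47, Mrps14 and Mrps28 stand highest, the 8 members on chromosome 17 all lie below 0, and those on chromosomes 7 and 1 all lie above 0.

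The rest of the pathway was followed with lists of genes for the steps of mitochondrial translation. Further proteins of the same ribosome go by other symbols, and 5 of them were measured. Their median was −0.55 in LuM1 over Colon26, and all 5 lay below the median of all measured genes. Gadd45gip1, a large subunit protein, was at 5100 in Colon26, 2222 in LuM1 and 4388 in NM11 (−1.20 in LuM1 over Colon26). Dap3, the GTP-binding protein of the small subunit, was at 20634, 17355 and 32614, again with NM11 above Colon26 (0.66) and LuM1 slightly below it (−0.25).

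The translation factors stood nearer to the median gene. The median of the 12 factors was −0.04 in LuM1 over Colon26, which is 0.11 above that of all measured genes, and 5 of the 12 lay below it. The only one 2-fold or more apart in either comparison of LuM1 was Tsfm, the elongation factor that recycles Tufm. Its signal was 1501 in Colon26, 609 in LuM1 and 1503 in NM11 (−1.30 in both comparisons of LuM1). This is 8.33% of the factors, against 10.1% of all measured genes lower in LuM1 over Colon26 and 8.16% in LuM1 over NM11. Tufm itself, which brings the charged tRNAs to the ribosome, was at 10057, 7896 and 11081 (−0.35 in LuM1 over Colon26).

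Among 22 genes of ribosome assembly and ribosomal RNA modification the median was −0.43 in LuM1 over Colon26, and 14 lay below the median of all measured genes. In LuM1 over Colon26, 3 were lower by 2-fold or more (13.6%, against 10.1% of all measured genes). They were Mrm1, a methyltransferase of the large ribosomal RNA (−1.23), Noa1 (−1.02) and Mtg2 (−1.01), the latter both GTPases. Noa1 and Mtg2 lay close to the threshold, and scaling to the median shifts all ratios of this comparison by 0.05. In LuM1 over NM11, 3 were lower by 2-fold or more (13.6%, against 8.16% of all measured genes). They were Rpusd4, a pseudouridine synthase (−1.25), Mrm3, another methyltransferase (−1.20), and Eral1, a chaperone of the small ribosomal RNA (−1.01). The 17 aminoacyl-tRNA synthetases of mitochondria had a median of −0.32 in LuM1 over Colon26, with 12 below that of all genes. Tars2, the synthetase for threonine, was at 18211 in Colon26, 6404 in LuM1 and 9713 in NM11 (−1.51 and −0.91 over Colon26). Vars2, that for valine, was at 1194, 610 and 473 (−0.97 and −1.34), and Mars2, that for methionine, was low in signal at 110, 63.2 and 127 (−1.003 in LuM1 over NM11).

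Of 15 genes of mitochondrial transcription, messenger RNA stability and biogenesis, 14 were measured, and 12 of these lay below the median of all measured genes in LuM1 over Colon26 (median −0.54). Myc, a transcription factor that promotes growth and biogenesis, was at 5959 in Colon26, 2621 in LuM1 and 5306 in NM11, with LuM1 below Colon26 (−1.18) and NM11 (−1.02). Tfam, which packages mitochondrial DNA and takes part in its transcription, was at 2495, 1463 and 2483 (−0.77 in LuM1 over Colon26 and −0.01 in NM11 over Colon26). Polrmt, the mitochondrial RNA polymerase, was at 1633, 1601 and 1909 (−0.03 in LuM1 over Colon26), so its level did not follow that of Tfam. Ppargc1a, a coactivator of biogenesis, was well above background only in NM11, at 24.2.

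The mitochondrial ribosome was set beside its cytosolic counterpart and beside the respiratory chain that it serves. The 72 genes of cytosolic ribosomal proteins had a median of −0.53 in LuM1 over Colon26, and 69 lay below that of all measured genes. Rps14 (−1.31) and Rps2 (−1.18) were at least 2-fold lower (2.78% of the list, against 10.1% of all measured genes). These genes have many near-identical copies in the genome, so signals of single members are uncertain. The 79 measured nuclear genes of the respiratory chain and ATP synthase had a median of −0.37, equal to that of the mitochondrial ribosomal proteins, and 56 lay below that of all genes. In LuM1 over Colon26, Uqcrc1 (−1.24), Cox5a (−1.04), Atp5d (−1.03), Atp5a1 (−1.03) and the muscle form Cox6a2 (−4.03) were lower by 2-fold or more. These were 6.33% of the 79 genes, against 10.1% of all measured genes. Atp5g1 was lower by 2-fold against NM11 alone (−1.17). The other muscle form, Cox7a1, was the one that was higher in LuM1 over Colon26 (1.27%, against 9.51% of all measured genes). Its signal was 67.0 in Colon26, 1430 in LuM1 and 209 in NM11 (4.41 in LuM1 and 1.64 in NM11 over Colon26). In NM11 over Colon26, the medians of the cytosolic ribosomal proteins and of the respiratory chain were 0.03 and 0.00, next to 0.00 for the mitochondrial ribosomal proteins. A lower position in LuM1 than the median gene was thus seen in all 3 lists, and in the genes with signals between the quartiles of the members.

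**Figure D5:**
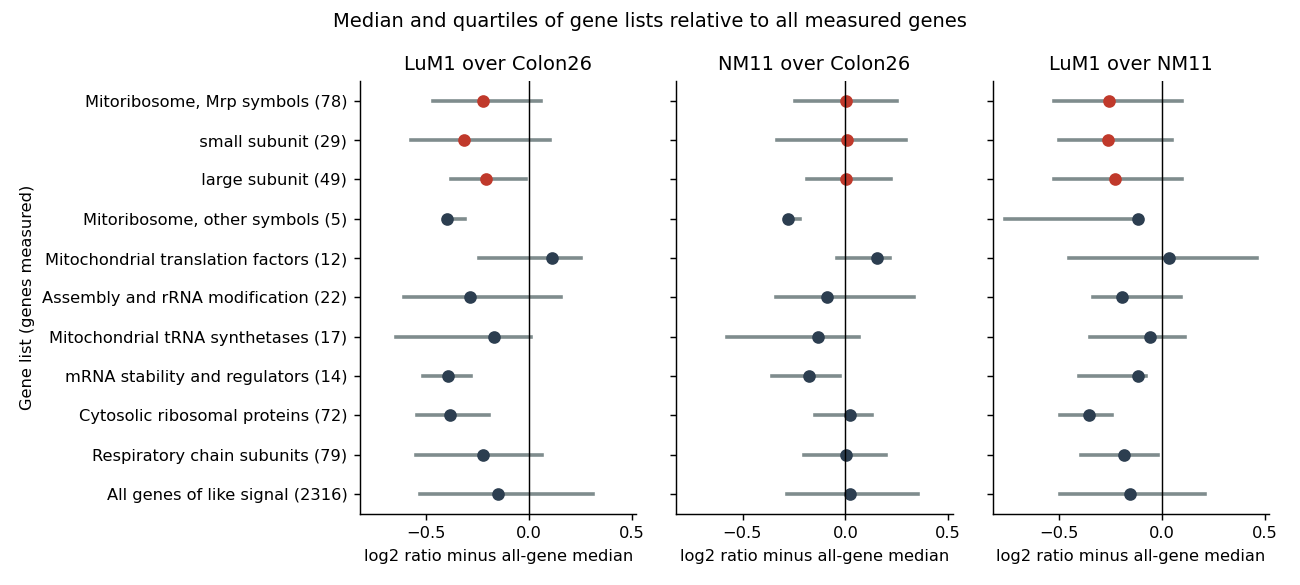
Median (circles) and quartiles (bars) of the log2 ratios of each gene list minus the median of all measured genes, with the number of genes measured for LuM1 and Colon26 in brackets (1 array per line). In both comparisons of LuM1 the mitochondrial ribosomal proteins lie to the left of 0 together with the cytosolic ribosomal proteins and the respiratory chain subunits, whereas the median of the translation factors lies at or to the right of it.

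Promoter sequence was available for 69 of the 78 members. The ETS core was found in 26 of them (37.7%), against 9.93% of the promoters of all genes in the table, 20.2% of those of genes measured on all arrays and 39.6% of those of cytosolic ribosomal proteins. The YY1 site was found in 5 members (7.25%, against 0.995% of all), the NRF1 site in 3 (4.35%, against 1.07%) and the E-box, to which Myc binds, in 5 (7.25%, against 8.09%). Among the promoters of genes measured on all arrays the shares were 2.46%, 2.27% and 11.7%, and among those of the respiratory chain 7.46%, 7.46% and 8.96%. Windows ran from 250 bases before to 50 bases after the start and both strands were read. Members with an ETS core had a median of −0.41 in LuM1 over Colon26, and the 43 without had one of −0.36, a difference that is small beside the quartiles of the family. A match is a description of the letters and not a binding site.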

How the data were processed

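Total RNA (0.1 µg) of each line was labelled with Cy3 and hybridised to 1 Agilent mouse array. Per the file headers, the arrays were read with Agilent Feature Extraction 11.5.1.1, and all 3 lay on the same slide and scan. The authors deposited spot intensities, which that software had corrected for background, with their errors and flags, and a table of processed intensities in which each array differs from its scanner values by a constant factor (Colon26 0.654, LuM1 0.829, NM11 0.706). The normalization behind these factors was not given in the sources used here.

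Control spots and outlier spots (137, 74 and 99 in Colon26, LuM1 and NM11) were left out, and probes printed 10 times were averaged over their spots. Intensities were divided by the 75th percentile over probes of each array (398.0, 433.4 and 371.1) and multiplied by a common level of 400.8. Gene symbols were looked up by transcript accession in the RefSeq genes of GRCm38.p6, which matched 32994 of 56605 probes (58.3%). The rest were not used by name, and no position is given for probes. Of all probes, 49.9%, 53.8% and 52.5% were well above background.

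With 1 array per line there was no test, and precision is limited by how few arrays there are. Named members are those at least 2-fold apart in a comparison and the 4 highest and 4 lowest ratios in each, 19 in all. Other members are named as neighbours of a threshold, as paralogues or partners, or as members of a count. Members and lists were chosen with earlier results of these data known, and the neighbour and chromosome descriptions after the values had been seen. Alternatives were other scalings, quantile normalization, normexp background correction (limma 3.58.1 in R 4.3.3), the processed table, the detection rule, the filter on dim probes, the probes of a gene and the fold threshold. A percentile over all non-control spots and the median of a list without Mrps18b were added after seeing the data. Calculations were made in Python 3.11.15 with numpy 2.4.6 and pandas 2.3.3, and the code was tested on simulated data.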

Additional observations from a re-analysis of the deposited data

Results flagged for a closer look

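In 3 members at least 2-fold apart between the sublines, LuM1 lay below and NM11 above the parental line, each by more than the scanner error. The share of all genes that met both conditions was not counted. By the 2-fold fall of LuM1 against NM11 alone, it was 8.16%, against 7.69% of members. By the sides of the parental line alone, it was 7.51%, against 17.9% of members. The log2 ratio of LuM1 over NM11 was −1.25 for Mrps6, −1.12 for Mrpl54 and −1.01 for Mrpl22. The difference between the sublines was not tested, since each line had 1 array. With scaling to Hprt, the ratio of NM11 over Colon26 became −0.14 for Mrpl54 and −0.17 for Mrpl22, so that only Mrps6 kept NM11 above Colon26 (0.27). With the values processed by the authors, LuM1 and Colon26 were level at Mrps6. At Mrpl22 LuM1 was then below Colon26 by less than the scanner error (−0.20), and at Mrpl54 by more (−0.29).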

How the results depend on the processing

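No paired analysis was possible because each line had 1 array. The members' median for LuM1 over Colon26 was −0.15 with quantile normalization and 0.091 with the values processed by the authors. For NM11 over Colon26 it was −0.51 with scaling to Hprt and −0.28 with the E1A spike-in controls. For LuM1 over NM11 it was −0.18 without scaling, 0.22 with Hprt, −0.051 with E1A and 0.048 with the processed values. Relative to all measured genes, it ran from −0.24 to −0.019 for LuM1 over Colon26, from −0.03 to 0.23 for NM11 over Colon26 and from −0.43 to −0.18 for LuM1 over NM11, and the values −0.019 and 0.23 were those without the filter on dim probes. In LuM1 over Colon26, 1 member was at least 2-fold higher without scaling and with scaling to the median, Hprt or E1A, with quantile normalization and with the processed values, and 1 was at least 1.5-fold higher. In the same comparison, 1 was at least 2-fold lower without scaling, with scaling to the median, Hprt or E1A, with quantile normalization, with normexp and with the percentile over all non-control spots, 0 with the processed values, and 21 at 1.5-fold. In NM11 over Colon26, 0 were higher with Hprt and 6 at 1.5-fold, while 5 were lower with Hprt, 1 with E1A and 3 at 1.5-fold. In LuM1 over NM11, 2 were higher with Hprt, while 2 were lower without scaling, 0 with Hprt, E1A, quantile normalization or the processed values, and 28 at 1.5-fold. The shift of the median of all measured genes reached 0.63 (LuM1 over NM11, Hprt) and 0.46 (LuM1 over Colon26, processed values). Of the 57 ratios of named members, 14 changed sign under an alternative, and none of these was 2-fold or more. Apart from the construction of each scaling, the cause was not tested.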
